A study of Mus musculus with 109 samples.

Results

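RNA of whole retinas was compared 14 days after a single injection of tumour necrosis factor (TNF) or of its vehicle, phosphate-buffered saline (PBS), into the vitreous. The comparison held 13 of the 109 retinas of the series, which are all wild-type (WT) retinas of batch 1 with a time label of 14 days that received TNF or PBS. Of these, 6 received TNF (4 female, 2 male) and 7 received PBS (3 female, 4 male), and they came from 8 C57BL/6J mice. The series description gives an age of 2 to 4 months, and the study's methods give 2 to 6 months. A volume of 2 μL was injected after some vitreous had been drained, and TNF was given at 0.05 μg/μL. In 4 mice one eye received TNF and the other PBS, in 1 mouse both eyes received PBS, and 3 mice gave 1 retina each. The eye with PBS was therefore opened, drained and injected too, and the comparison leaves the effect of the injection itself out. The tissue protocol in the labels speaks of eyes harvested at 2 days for all samples, while the time label of these retinas is 14 days, and the time label was used.

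TNF binds to 2 receptors. TNFR1 (gene Tnfrsf1a) carries a death domain and is present on most cells, and TNFR2 (Tnfrsf1b) is found mainly on immune, glial and endothelial cells. TNFR1 acts through the adaptors TRADD, TRAF2 and RIPK1, and TNFR2 binds TRAF2 directly. Both lead to the IKK kinases, which free the transcription factor NF-κB from its inhibitor. NF-κB then switches on chemokines, adhesion molecules and its own inhibitors, among them Nfkbia and Tnfaip3, so that the signal is normally brief. In the retina, microglia, Müller glia, astrocytes and vessels respond to TNF, and retinal ganglion cells (RGCs), the neurons whose axons form the optic nerve, can be lost after it.

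The promoters of 3 NF-κB targets are shown because they hold the site to which the pathway leads, in a chemokine gene (Cxcl10) and in both of the inhibitor genes described below. Each sequence covers the 250 bases before the start of the gene on its coding strand, read 5′ to 3′ from RefSeq on GRCm38.p6, and capitals mark every match to the NF-κB (κB) consensus on either strand. The sequences lie at chr5:92348890-92349139 for Cxcl10, chr12:55492648-55492897 for Nfkbia and chr10:19015411-19015660 for Tnfaip3, all on the minus strand.
Cxcl10: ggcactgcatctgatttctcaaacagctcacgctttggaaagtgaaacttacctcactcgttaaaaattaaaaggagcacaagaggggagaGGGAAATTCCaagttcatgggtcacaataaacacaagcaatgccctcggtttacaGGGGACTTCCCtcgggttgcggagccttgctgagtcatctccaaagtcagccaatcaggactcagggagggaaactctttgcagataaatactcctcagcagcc
Nfkbia: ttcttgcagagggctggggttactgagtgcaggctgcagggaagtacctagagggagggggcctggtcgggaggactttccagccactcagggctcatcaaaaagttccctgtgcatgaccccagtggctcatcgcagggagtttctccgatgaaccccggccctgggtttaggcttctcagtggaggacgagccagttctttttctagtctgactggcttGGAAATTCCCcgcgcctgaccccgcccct
Tnfaip3: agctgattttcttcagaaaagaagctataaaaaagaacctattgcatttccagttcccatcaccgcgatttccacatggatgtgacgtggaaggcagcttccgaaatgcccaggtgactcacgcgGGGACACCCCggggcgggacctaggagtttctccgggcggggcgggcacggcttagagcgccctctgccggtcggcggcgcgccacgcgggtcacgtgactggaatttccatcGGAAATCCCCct
Cxcl10 holds 2 such stretches, which lie 159 to 150 and 104 to 94 bases before the start. Nfkbia holds 1 stretch, 29 to 20 bases before the start, and Tnfaip3 holds 2, of which the nearer lies 12 to 3 bases before the start. Of the 24 NF-κB targets listed, 19 were found in the promoter table and 14 of these hold a match, against 2225 of 27025 genes (8.23%). A match is only a description of the letters.

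The total count per retina ranged from 30095033 to 40090639 in the PBS group and from 31646659 to 40562588 in the TNF group, so 10 counts correspond to between 0.2465 and 0.3323 CPM (counts scaled to the library total). Of 37315 genes, 18023 passed a filter on low counts and were tested. The rod transcription factor Nrl lay between 1059 and 1267 CPM and the RGC gene Rbpms between 27.7 and 35.8 CPM over the 13 retinas, so the retinal label was met by these markers. TNF retina 4 stood apart in lens crystallins: Cryaa was at 3410 CPM there, against at most 51.4 CPM in the other 12 retinas, and the summed lens list was at 6280 CPM against 2.27 to 98.3 CPM. PBS retina 7, labelled female, held the Y-linked gene Ddx3y at 1.11 CPM, which is 1.13% of the male median, while the next female retina was at 0.027 CPM. PBS retina 5 stood apart on the first principal component, which held 23.6% of the variance. These retinas were kept. Values without TNF retina 4 are given beside several of the list scores.

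At day 14 no gene was called. In limma with sex as a term and mouse as a block, 0 of 18023 genes (0%) had a Benjamini-Hochberg adjusted p (FDR) under 0.05, and the smallest FDR was 0.903. An unadjusted p under 0.05 was reached by 791 genes (4.39%), of which 398 (2.21%) were higher and 393 (2.18%) were lower after TNF. With edgeR 0 genes were called and 476 had an unadjusted p under 0.05, and with DESeq2 the numbers were 0 and 472. The median log2 fold change over all genes was 0.00252, and 51.4% of genes had a value above 0. The same fit at day 2, with other mice, called 96 of 19548 genes (0.491%), of which 92 were higher and 4 lower. A fit of group means followed by a contrast, whose standard errors are approximate with voom weights, called 128 at day 2. All p-values measure the spread between these retinas, of which 10 share a mouse with another.

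The changes still allowed were read from the 95% interval of each log2 fold change. For 16899 of the 18023 genes (93.8%) the whole interval lay between −1 and 1, so that a 2-fold change in either direction lay outside it, and for 75.4% it lay between −0.5 and 0.5. The limit depended on the level. It was within −1 and 1 for 99.7% of the 2287 genes over 100 CPM and for 99.5% of the 8016 genes between 10 and 100 CPM. It was so for 96.6% of the 4641 genes between 1 and 10 CPM and for 70.3% of the 3079 genes under 1 CPM. The median distance from the estimate to the end of the interval was 0.0833 over 100 CPM and 0.601 under 1 CPM. The interval of 842 genes reached a log2 fold change of 1 or more, and that of 330 genes reached −1 or less. Several of the chemokines and immune receptors described below lie near or under 1 CPM, where the limits are widest.

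**Figure D1:**
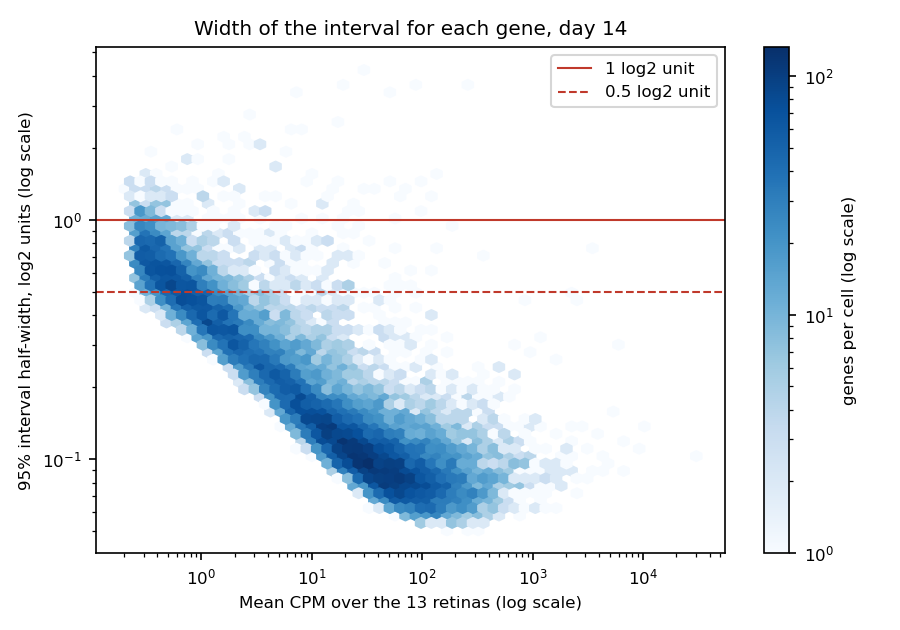
Distance from the log2 fold change to the end of its 95% interval (vertical axis, log2 units) against the mean level at day 14 (horizontal axis, CPM, log scale), for the 18023 genes tested; shading counts genes. The lines mark 1 and 0.5 log2 units: the median distance was 0.601 under 1 CPM and 0.0833 over 100 CPM.

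The eyes of the same mouse gave a second scale for the size of these differences. Over the 18023 genes, the root mean square of the log2 difference between the TNF eye and the PBS eye was 0.39, 0.349, 0.39 and 0.402 in mice 59708, 59712, 59830 and 60032. It was 0.402 between the left and the right eye of mouse 59710, which had received PBS in both. By this measure the TNF and PBS eyes were no farther apart than the pair of PBS eyes, of which there was only 1. By other measures they were in 3 of the 4 mice. The median absolute difference was 0.142, 0.108, 0.121 and 0.129 against 0.118, and the root mean square over genes of at least 10 CPM was 0.171, 0.145, 0.175 and 0.183 against 0.165. The first of these 4 mice had 583 genes (3.23%) with a difference over 1 log2 unit, and the mouse with PBS in both eyes had 706 (3.92%).

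Genes of the TNF pathway itself were described first. TNF's own transcript had 20 counts in the 13 retinas together, at most 6 in any, and was not tested. Of the other 17 receptors, adaptors and kinases listed, 14 had a log2 fold change above 0, beside 51.4% of all genes, 1 was higher at an unadjusted p under 0.05, beside 2.21%, and none was called. The mean log2 CPM of the list (its score, relative to the PBS mean) was higher after TNF by 0.08, with a 95% interval of 0.02 to 0.15, beside 0.02 for the mean of all genes. Without TNF retina 4 it was 0.07 (0.02 to 0.13). The number of members that were higher at an unadjusted p under 0.05 ran from 0 to 5 with a retina or mouse left out.

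Tnfrsf1b, the gene of TNFR2 (ENSMUSG00000028599, chr4:145213463-145246870, mm10), lay between 1.80 and 4.67 CPM in PBS retinas (median 2.98) and between 3.02 and 5.11 CPM in TNF retinas (median 3.87). The groups overlapped, with 5 of 6 TNF retinas above the PBS mean. The log2 fold change of Tnfrsf1b was 0.48 (SE 0.18, 95% interval 0.10 to 0.85, unadjusted p = 0.0155, FDR 0.903 in limma), and it was 0.27 without PBS retina 6. Tnfrsf1a, the gene of TNFR1, ranged from 8.63 to 14.2 CPM after PBS (median 10.6) and from 8.85 to 19.7 CPM after TNF (median 13.02). The ranges largely overlapped, and its log2 fold change was 0.24 (95% interval −0.08 to 0.55, unadjusted p = 0.129 in limma). The death domain adaptor Fadd (0.17) and the kinase Ripk1 (0.14) had unadjusted p-values of 0.0804 and 0.082 in limma. Otulin, a deubiquitinase that restrains the pathway, had the lowest value of the list (−0.06).

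Among NF-κB target genes, those that were higher at an unadjusted p under 0.05 were 2 adhesion molecules, a chemokine and regulators of signalling, while the inhibitors Nfkbia and Tnfaip3 were close to 0. Of 24 genes listed, 19 were tested, and Il6, Sele, Cxcl1, Ccl2 and Ccl5 were too low for it. Of these 19, 14 had a log2 fold change above 0, 6 had a higher level at an unadjusted p under 0.05 beside 2.21% of all genes, and none was called. The score of the list was higher by 0.30 (95% interval 0.12 to 0.47), which corresponds to a mean fold between 1.09 and 1.39. It lay between −0.17 and 0.18 in the PBS retinas and at 0.28, 0.50, 0.07, 0.54, 0.23 and 0.19 in TNF retinas 1 to 6. Every TNF retina lay above the PBS mean and 5 of 6 above every PBS retina.

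Within mice, the TNF eye exceeded the PBS eye in NF-κB score by 0.22, 0.24, 0.36 and 0.18, and both PBS eyes of mouse 59710 differed by 0.11. With mouse as a fixed factor over these 4 pairs the difference was 0.25 (95% interval 0.13 to 0.37), and without TNF retina 4 it was 0.26 (0.10 to 0.43). Low genes weighed on it. The filter asked for about 10 counts in 6 retinas, the size of the TNF group. A low member could thus pass mainly through TNF retinas, which bears on the score and on the count at an unadjusted p under 0.05. With genes of at least 1 CPM in 6 retinas the list kept 15 members and the difference was 0.14 (−0.01 to 0.30).

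Icam1, an adhesion molecule of vessels and glia that binds leukocytes (ENSMUSG00000037405, chr9:21015985-21028817), lay between 1.04 and 2.60 CPM in PBS retinas (median 1.70) and between 1.67 and 4.01 CPM in TNF retinas (median 2.59). The groups overlapped, with 5 of 6 TNF retinas above the PBS mean. For Icam1 the log2 fold change was 0.69 (SE 0.20, 95% interval 0.26 to 1.12, unadjusted p = 0.00358 in limma), and it was 0.69 at day 35 as well (unadjusted p = 0.00126 in limma). Vcam1, an adhesion molecule of the same kind, lay between 16.5 and 22.6 CPM after PBS (median 17.5) and between 18.9 and 31.3 CPM after TNF (median 21.4). All 6 TNF retinas lay above its PBS mean, and its log2 fold change was 0.26 (SE 0.10, unadjusted p = 0.0184 in limma).

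Cxcl10, a chemokine that draws T cells and whose promoter is shown above, ranged from 0.115 to 0.883 CPM in PBS retinas (median 0.237) and from 0.281 to 3.27 CPM in TNF retinas (median 0.484). Only 4 of 6 TNF retinas were above the PBS mean, and the level is close to 10 counts. Its log2 fold change of 1.56 (SE 0.52, 95% interval 0.46 to 2.67, unadjusted p = 0.00858 in limma) became 1.04 without TNF retina 2. The signalling adaptor Traf1 (0.99, unadjusted p = 0.0065), Tnfaip2 (0.83, p = 0.0117) and the NF-κB cofactor Bcl3 (0.63, p = 0.0353) were the other members with higher levels in limma. Traf1 was also low, with medians of 0.169 CPM after PBS and 0.361 CPM after TNF. The PBS medians of Cxcl10 and Traf1 lay under 0.2465 CPM, the lowest level that 10 counts gave in any retina. Neither gene could thus have passed the filter on PBS retinas alone, and their higher values are a description only.

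The inhibitors, in contrast, were closely bounded. Nfkbia, which encodes IκBα, lay between 16.7 and 21.6 CPM after PBS (median 19.3) and between 17.2 and 23.2 CPM after TNF (median 18.3). The log2 fold change of Nfkbia was −0.006 (95% interval −0.16 to 0.15, unadjusted p = 0.933 in limma). Tnfaip3, which encodes the deubiquitinase A20, lay between 316.8 and 371.4 CPM after PBS and between 312.2 and 370.8 CPM after TNF. For Tnfaip3 it was −0.02 (95% interval −0.11 to 0.06, unadjusted p = 0.603 in limma). Of the 5 members in the promoter table that were higher at an unadjusted p under 0.05, 2 (Cxcl10 and Tnfaip2) hold a κB match. Icam1, Bcl3 and Traf1 hold none within the 250 bases scanned, and Vcam1 was not in that table. A relation between matches and levels was not tested.

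**Figure D2:**
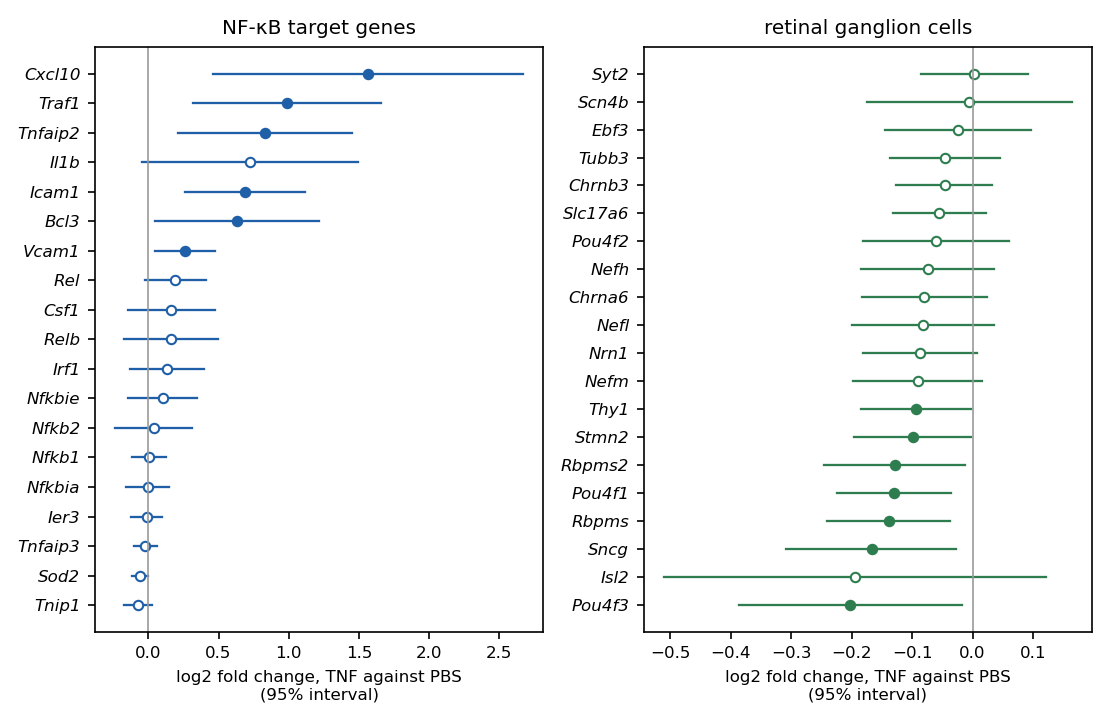
Log2 fold change of TNF against PBS at day 14 (horizontal axis, log2 units) with its 95% interval for each tested member of the NF-κB target list (19 genes) and the RGC list (20 genes); filled points have an unadjusted p under 0.05. In the first list 6 filled points lie above 0, and in the second 7 lie below 0.

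Complement, a set of secreted proteases and receptors that tag synapses and cells for microglia, was higher in all of its tested members, and in 6 of them at an unadjusted p under 0.05. All 12 tested members of 13 had a log2 fold change above 0, beside 51.4% of all genes, and the 6 compare with 2.21% of all genes that were higher at that level. The 6 became 2 without PBS retina 6 and 9 without TNF retina 6. None was called. The median was 0.41 and the score was higher by 0.40 (95% interval 0.05 to 0.76). TNF retinas 1 to 6 had scores of 0.65, 0.62, −0.003, 1.12, 0.22 and 0.21, against −0.23 to 0.34 in the PBS retinas, so the groups overlapped in the 3 lowest TNF retinas. Within mice the TNF eye was above the PBS eye by 0.31, 0.23, 0.39 and 0.16, but both PBS eyes of mouse 59710 differed by 0.34. With a retina or mouse left out the difference stayed between 0.32 and 0.52. Its interval reached 0 without TNF retina 2 (0.34, −0.06 to 0.73), TNF retina 1 (0.39, −0.003 to 0.79), PBS retina 4, PBS retina 6 or mouse 59708, and not without TNF retina 4 (0.32, 0.03 to 0.61). Markers of cornea, iris and ciliary body, tissue outside the neural retina, moved with it in part. Their scores in TNF retinas 1 to 6 were 1.83, 0.51, −0.09, 1.101, 0.88 and 0.11, and the PBS retinas with the highest complement scores, 1 and 2 (0.34 and 0.23), were at 0.88 and 1.21. In mouse 59710 the PBS eyes that differed by 0.34 in complement differed by 1.25 in these markers and by 0.74 in those of the pigment epithelium. The part of such tissue in the complement values was not tested.

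C1ra, a protease of the first complement complex (ENSMUSG00000055172, chr6:124512405-124523443), lay between 1.90 and 4.19 CPM in PBS retinas (median 3.01) and between 2.99 and 6.97 CPM in TNF retinas (median 4.74). All 6 TNF retinas were above the PBS mean, and the log2 fold change was 0.67 (SE 0.18, 95% interval 0.28 to 1.05, unadjusted p = 0.00217 in limma). C3, the central component (ENSMUSG00000024164, chr17:57203970-57228136), lay between 3.31 and 14.2 CPM (median 6.46) and between 7.15 and 26.2 CPM (median 10.5). C3 had a log2 fold change of 0.66 (95% interval 0.12 to 1.19, unadjusted p = 0.0193 in limma), and all 6 TNF retinas again exceeded the PBS mean. C4b, the fourth component and a gene of reactive glia, lay between 27.4 and 66.5 CPM (median 38.6) and between 39.4 and 172.5 CPM (median 58.5), with TNF retina 4 at the top. C4b had a log2 fold change of 0.56 (unadjusted p = 0.0299 in limma) and was 0.39 without that retina (unadjusted p = 0.0144). The initiator subunit C1qa, a microglial gene, had 0.25 (95% interval −0.16 to 0.65, p = 0.211 in limma), and 0.13 without TNF retina 4. Over the 4 paired mice, with mouse as a fixed factor, C1qa was at 0.05, C4b at 0.32, C3 at 0.41 and C1ra at 0.57.

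RGC genes had a score that was lower by a few percent, with an interval that ended close to 0 and that included 0 in most fits with a retina or mouse left out. All 20 listed markers were tested, 19 had a log2 fold change below 0 and 7 had an unadjusted p under 0.05, beside 2.18% of all genes that were lower at that level. This 7 became 0 without mouse 59708 and 15 without TNF retina 2, and none was called. The score was lower by 0.09 (95% interval −0.18 to −0.003), which is −5.98% with limits of −11.4% and −0.222%. TNF retinas 1 to 6 had scores of −0.12, 0.06, −0.12, −0.14, −0.08 and −0.10, against −0.09 to 0.07 in PBS retinas. Of the 6 TNF retinas, 4 lay below every PBS retina, and TNF retina 2 lay among the highest. In bulk RNA, fewer RGCs and less of these transcripts per RGC cannot be told apart. The study also counted RBPMS-stained RGCs in other retinas, and reported no significant loss 14 days after TNF alone.

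Rbpms, an RNA-binding protein used as a marker of all RGCs (ENSMUSG00000031586, chr8:33782643-33929863), lay between 29.4 and 35.8 CPM in PBS retinas (median 32.4) and between 27.7 and 32.5 CPM in TNF retinas (median 29.6). The ranges overlapped, with 1 of 6 TNF retinas above the PBS mean. For Rbpms the log2 fold change was −0.14 (SE 0.05, 95% interval −0.24 to −0.04, unadjusted p = 0.0106 in limma). The transcription factor Pou4f1 (BRN3A) lay between 30.2 and 34.9 CPM (median 31.1) after PBS and between 28.1 and 31.7 CPM (median 29.02) after TNF. No TNF retina exceeded its PBS mean, and its log2 fold change was −0.13 (unadjusted p = 0.00966 in limma). The synuclein Sncg was at −0.17 (p = 0.0228), the related factor Pou4f3 at −0.20 (p = 0.0333), and the surface protein Thy1 at −0.09 (p = 0.0446). The tubulin Tubb3, another common RGC marker, was at −0.05 (95% interval −0.14 to 0.05, p = 0.301), or −0.08 (−0.17 to −0.003, p = 0.0424) without TNF retina 2 and −0.02 without TNF retina 1, and Syt2 (0.003) was the member that was not below 0.

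The RGC interval came close to 0. With a retina or mouse left out the difference stayed between −0.13 and −0.07, but the interval left out 0 in 3 of 18 distinct fits of this kind, those without TNF retina 2, PBS retina 4 or PBS retina 5. Without TNF retina 2 it was −0.13 (−0.19 to −0.07). Without TNF retina 4 it was −0.08 (−0.17 to 0.01) with 4 such genes, and without TNF retina 1 it was −0.08 (−0.17 to 0.02). Within mice the TNF eye differed from the PBS eye by −0.19, −0.03, −0.13 and −0.12, and the PBS eyes of mouse 59710 (left minus right) by −0.05. Values for other retinal neurons follow. The rod list was at −0.05 (−0.14 to 0.05) with 10 of 11 genes below 0, the amacrine list at −0.05 (−0.13 to 0.03) with 8 of 9, the cone list at −0.01 and the bipolar list at −0.006. The rod value ran from −0.07 without TNF retina 2 to −0.03 without TNF retina 3, and the amacrine value was −0.02 without mouse 60032. The bipolar value was −0.05 without PBS retina 1 and 0.02 without PBS retina 6, and the cone value was −0.03 and 0.02 without the same retinas. That the RGC list differs from these was not tested. At day 2 the RGC score differed by −0.06 (−0.16 to 0.05) and at day 35 by −0.05 (−0.12 to 0.03), and the difference between day 14 and day 2 was −0.02 (−0.16 to 0.12).

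Interferon response genes were highest in TNF retina 2. All 19 tested members had a log2 fold change above 0, beside 51.4% of all genes, and 5 were higher at an unadjusted p under 0.05, beside 2.21%. None was called, and the score was higher by 0.36 (−0.10 to 0.81). Within mice 59708, 59712, 59830 and 60032 the TNF eye differed from the PBS eye by 0.192, 0.395, −0.057 and −0.177. Both PBS eyes of mouse 59710 differed by −0.023. TNF retina 2 had a score of 1.17 and TNF retina 4 one of 0.88, while TNF retinas 5 and 6 (−0.09 and −0.22) were low, TNF retina 6 below every PBS retina (−0.20 to 0.27). Without TNF retina 2 the difference was 0.18 (−0.21 to 0.57) and no member had an unadjusted p under 0.05, and without TNF retina 4 it was 0.28 (−0.16 to 0.72). It was 0.47 without TNF retina 3, and without TNF retina 6 it was 0.46 (0.03 to 0.90) with 13 members at that level, the 1 fit of 18 whose interval left out 0. The guanylate-binding protein Gbp2 ranged from 5.18 to 8.73 CPM after PBS (median 6.66) and from 6.26 to 22.1 CPM after TNF (median 7.74). Gbp2 had a log2 fold change of 0.60 (unadjusted p = 0.02 in limma), which became 0.32 (unadjusted p = 0.0787) without TNF retina 2. Ifit3 was at 0.44 (p = 0.0838 in limma), or 0.15 without TNF retina 2. Ifitm3 was at 0.30 (p = 0.155 in limma), or 0.18 without PBS retina 6. The regulator Irf7 was at 0.19 (p = 0.0707 in limma), or 0.12 without TNF retina 2. None of them reached an unadjusted p under 0.05, though each did without TNF retina 6. In the 4 paired mice, with mouse as a fixed factor, Ifit3 was at 0.041, Ifitm3 at 0.115 and Irf7 at 0.091.

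Microglial and myeloid genes gave wide limits. Homeostatic microglial genes differed by 0.05 (−0.26 to 0.37), and by −0.05 (−0.18 to 0.09) without TNF retina 4. Csf1r, the receptor on which microglia depend, lay between 10.01 and 14.85 CPM after PBS (median 12.9) and between 11.3 and 22.4 CPM after TNF (median 13.4), with TNF retina 4 at the top. For Csf1r the log2 fold change was 0.11 (−0.16 to 0.38, unadjusted p = 0.399), or 0.03 without that retina, and those of Cx3cr1, Tmem119 and P2ry12 were −0.01, 0.06 and 0.03. Those 3 values changed sign among the alternatives, and with mouse as a fixed factor in the 4 paired mice Cx3cr1 was at −0.23 (−0.44 to −0.015, unadjusted p = 0.0384 in limma). Genes of disease-associated microglia differed by 0.24 (−0.08 to 0.57), with 2 of 16 higher at an unadjusted p under 0.05, beside 2.21% of all genes, the lectin Clec7a (0.63, p = 0.038) and the adaptor Tyrobp (0.46, p = 0.0378). Without TNF retina 4 the list differed by 0.18 (−0.12 to 0.49), with no member at that level. TNF retina 4 had the highest score of this list (0.73), and PBS retinas 5 and 6 had the lowest (−0.36 and −0.24). Trem2, whose product signals through Tyrobp, was at 0.31 (p = 0.158 in limma), or 0.19 without PBS retina 7. Cst7 was at 0.61 (p = 0.097 in limma), with 0.98 (p = 0.00358) without TNF retina 2 and 0.40 without TNF retina 3. Lpl was at 0.01 (p = 0.903 in limma). Mouse as a fixed factor in the 4 paired mice gave 0.08 for Trem2, −0.06 for Lpl and 0.92 for Cst7.

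Genes of monocytes and macrophages differed by 0.36 (−0.07 to 0.79), and 3 of 9 tested members were higher at an unadjusted p under 0.05, beside 2.21% of all genes. Without TNF retina 4 the difference was 0.31 (−0.12 to 0.74). The 3 members at that level became 2 to 5 with a retina or mouse left out. The interval of the list left out 0 in 3 of 21 such fits, repeated fits counted. Lyz2, the lysozyme of myeloid cells (ENSMUSG00000069516, chr10:117277331-117282321), lay between 5.85 and 20.02 CPM after PBS (median 11.1) and between 9.35 and 38.3 CPM after TNF (median 24.1). It overlapped between the groups, and its log2 fold change was 0.94 (SE 0.33, 95% interval 0.25 to 1.64, unadjusted p = 0.0112 in limma). Ms4a7, a marker of macrophages, was at 0.54 (p = 0.00186) and the Fc receptor Fcgr1 at 0.59 (p = 0.0468). The highest scores were in TNF retinas 4 (1.12) and 1 (0.78). The markers of cornea, iris and ciliary body given above were also high in these retinas, at 1.83 in TNF retina 1 and 1.101 in TNF retina 4, though PBS retina 2 lay between them at 1.21, and the lowest PBS retina was at −1.26. Their part in the myeloid values was not tested. The recruited-cell marker Ccr2 was at 0.71 (p = 0.228), only 2 of 10 neutrophil genes were high enough to test, and Cd163, Ly6c2 and Plac8 were too low.

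Antigen presentation by MHC class II was the list in which day 14 lay farthest below day 2. It differed by 0.38 (−0.15 to 0.91) at day 14 and by 1.21 (0.57 to 1.86) at day 2, although the difference between the days, −0.89, had an interval of −2.04 to 0.26. The day 14 difference was 0.23 without PBS retina 6 and 0.28 (−0.20 to 0.76) without TNF retina 4. That retina had the highest score (1.26), and PBS retinas 5 and 6 had the lowest (−0.78 and −0.42). Both of these PBS retinas were also lowest in the markers of cornea, iris and ciliary body (−1.26 and −0.96) and of pigment epithelium (−1.59 and −1.09), as they were in the genes of disease-associated microglia. The part of such tissue in these values was not tested. H2-Ab1, a class II chain, lay between 1.11 and 3.53 CPM after PBS (median 2.97) and between 2.55 and 6.19 CPM after TNF (median 3.18). H2-Ab1 had a log2 fold change of 0.51 (−0.05 to 1.07, unadjusted p = 0.0691 in limma) at day 14 and 1.84 at day 2 (FDR 0.00971 in limma). Cd74, the invariant chain, was at 0.67 (p = 0.0863 in limma). Ciita, the regulator that class II genes need, was at 0.27 (p = 0.11 in limma) against 0.82 at day 2. Mouse as a fixed factor in the 4 paired mice gave 0.216 for H2-Ab1 and 0.224 for Cd74. Within these mice the TNF eye differed from the PBS eye in class II score by 0.242, 0.005, 0.638 and −0.287. Both PBS eyes of mouse 59710 differed by 0.283.

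Glial reactivity could be bounded only loosely, in part because of TNF retina 4. The pan-reactive list differed by 0.31 (−0.08 to 0.69), and by 0.20 (−0.03 to 0.42) without that retina. Gfap, the intermediate filament of astrocytes and stressed Müller glia, lay between 22.6 and 47.0 CPM after PBS (median 35.4) and between 28.3 and 93.4 CPM after TNF (median 39.1), and the 93.4 was TNF retina 4. For Gfap the log2 fold change was 0.26 (−0.19 to 0.70, unadjusted p = 0.239 in limma), or 0.12 (−0.20 to 0.44) without it. Gfap was at 0.06 (−0.17 to 0.30) with mouse as a fixed factor in the 4 paired mice. The metalloreductase Steap4 (0.60, p = 0.00392) and the protease inhibitor Timp1 (0.45, p = 0.0475) were above the PBS mean in 5 of 6 TNF retinas each. The A1 list differed by 0.25 (−0.10 to 0.60), and by 0.14 without TNF retina 2. The A2 list differed by 0.15 (−0.15 to 0.46), and by 0.05 without PBS retina 6, while the Müller glia and astrocyte marker lists were at −0.001 (−0.14 to 0.14) and 0.001 (−0.16 to 0.16).

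Genes of cell death and axon injury held no member that was called. BCL2 family genes differed by −0.008 (−0.07 to 0.05). The necroptosis and caspase-8 list differed by 0.15 (−0.02 to 0.31), with 9 of 10 members above 0, beside 51.4% of all genes. Of the TNF retinas 4 lay above every PBS retina and 1, TNF retina 3, lay below every one. It was 0.23 without TNF retina 3, and its interval left out 0 in 3 of 18 distinct fits with a retina or mouse left out. The axon injury list differed by −0.06 (−0.16 to 0.04), and neither list had a member at an unadjusted p under 0.05. The axon injury value was −0.08 without TNF retina 4 and −0.04 without TNF retina 6. Its interval left out 0 in 2 of 21 fits with a retina or mouse left out, repeated fits counted. Jun, the transcription factor that drives RGC death after axon injury, was at −0.01 (−0.14 to 0.11, p = 0.833), and Sarm1, the axon degeneration NADase, at 0.03 (−0.09 to 0.14, p = 0.643). Il1a, the cytokine combined with TNF elsewhere in the series, was at −0.001.

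**Figure D3:**
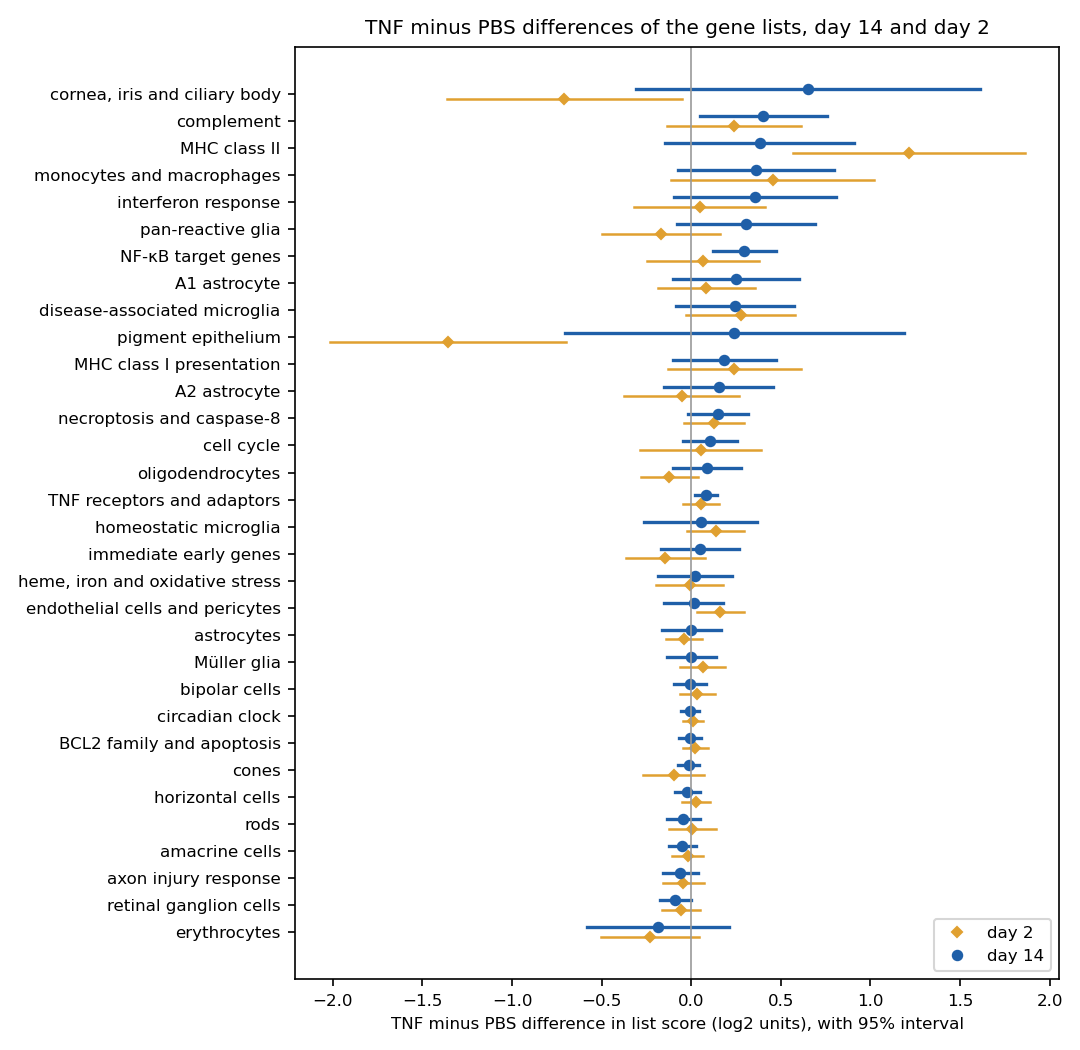
Difference between TNF and PBS retinas in the score of the gene lists (horizontal axis, log2 units) with its 95% interval, at day 14 (blue) and day 2 (orange). The lists of lens, of neutrophils, of T, B and NK cells and of sex labels are left out. At day 14 the intervals of the NF-κB list (0.30), the complement list (0.40) and the TNF receptor list (0.08) lie above 0. That of the RGC list (−0.09) lies just below it, while MHC class II lies at 0.38 at day 14 and 1.21 at day 2.

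What remained of the early response was read from the genes called at day 2, which the day 14 retinas took no part in choosing. Of the 96 genes, 77 were high enough to test at day 14 and 61 of these (79.2%) kept the direction of day 2, with 0 called. All 61 were among the 73 that were higher at day 2. The 4 that were lower at day 2 (Gpx3, Slc16a8, Serpine3 and Rdh5) were above 0 at day 14, at 0.66, 0.15, 0.83 and 0.11. The pigment epithelium list went the same way, from −1.36 at day 2 to 0.24 (−0.71 to 1.19) at day 14, with a difference between the days of 1.68 (0.60 to 2.77), and its part in these 4 genes was not tested. Of the 77 genes, the median log2 fold change along the day 2 direction was 0.13 at day 14, where the median of all genes was 0.00252, and 0.76 at day 2. The day 2 values chose the genes, so they are given as a description, and the size of the drop was not tested. The score of the 77 genes differed by 0.21 (−0.01 to 0.42), against 0.76 (0.47 to 1.04) at day 2. TNF retinas 1 to 6 were at 0.37, 0.27, 0.01, 0.67, 0.09 and −0.02, and PBS retinas lay between −0.08 and 0.08, so 4 of 6 TNF retinas were above all PBS retinas. Without TNF retina 4 the median was 0.0872 and 57 of 77 genes kept the direction. Over the 4 paired mice, with mouse as a fixed factor, the median was 0.0802 and 53 of 76 genes kept the direction.

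For 65 of the 77 genes the 95% interval at day 14 left out the day 2 value, and for 61 it still held 0.5 times that value. The direct test of the difference between the days called 0 of 19609 genes (0%), with 708 at an unadjusted p under 0.05. Among the 77, the effect was smaller at day 14 in 29 at an unadjusted p under 0.05 and larger in 0, with the same limit from the choice of the genes. An unadjusted p under 0.05 in the direction of day 2 was reached by 10 genes of 77, beside 2.21% of all genes that were higher at that level. These were Cybb, Ifi209, Aoah, Naip5, Cd300c2, Adgre1, C3ar1, Abcc3, Cd68 and Mpeg1, from 0.41 (Mpeg1) to 1.26 (Ifi209). Of these, Ifi209, Aoah, Naip5 and Cd300c2 had means of only 0.446, 0.376, 0.382 and 0.457 CPM, and Abcc3 one of 0.763 CPM. Such levels are near the floor of the filter, where a gene can pass mainly through the TNF retinas. Cybb, the catalytic subunit of the phagocyte NADPH oxidase, lay between 0.879 and 2.60 CPM after PBS (median 1.24) and between 1.33 and 5.27 CPM after TNF (median 2.71). Cybb had a log2 fold change of 0.93 (SE 0.31, unadjusted p = 0.00924 in limma), against 1.61 at day 2. Adgre1 (F4/80; 0.60, p = 0.0109), the lysosomal protein Cd68 (0.42, p = 0.0164) and the pore-former Mpeg1 (0.41, p = 0.0177), all expressed by macrophages, were others of the 10, and the interferon-inducible Ifi209 was at 1.26 (p = 0.0107).

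Among the 77 genes, those with the smallest FDR at day 2 had these values at day 14. Csf1r was at 0.11 after 0.72 at day 2, and Cmklr1, a chemerin receptor, was at 0.02 after 0.95. Arl11 was at −0.14, Ciita at 0.27 and Tifab at −0.05 after 0.82. Arl11 was at 0.14 without mouse 59712, Cmklr1 at −0.25 without mouse 59830 and Tifab at 0.13 without TNF retina 6. Differences among these genes were not tested. Serpine3 was the 1 gene that went against its day 2 direction at an unadjusted p under 0.05. It lay between 3.11 and 14.8 CPM after PBS (median 6.13) and between 4.99 and 34.6 CPM after TNF (median 13.8), with a log2 fold change of 0.83 (unadjusted p = 0.00348 in limma) after −1.15 at day 2. The test of the difference between days gave it 2.05 (unadjusted p = 8.35e-05, FDR 0.999 in limma). The pigment epithelium list moved with Serpine3 between the days, as given above.

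**Figure D4:**
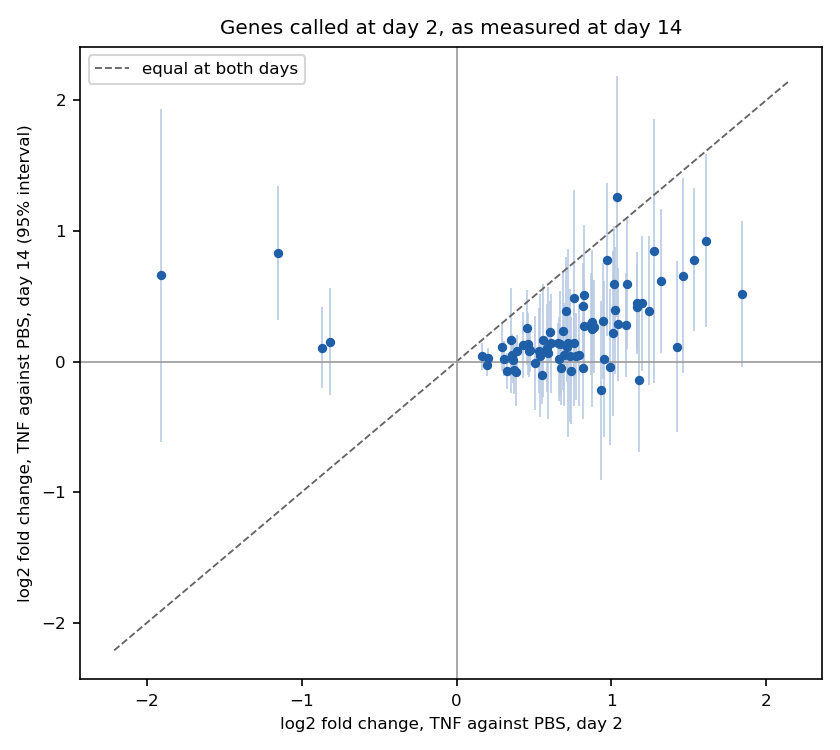
Log2 fold change of TNF against PBS at day 14 (vertical axis) against that at day 2 (horizontal axis), both in log2 units. The 77 genes called at day 2 and tested at day 14 are shown. Bars give the 95% interval at day 14, and the day 2 values are drawn without one. The dashed line marks equal values: 61 genes keep the direction of day 2, and the median along it is 0.13 at day 14 and 0.76 at day 2.

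Among genes with a mean of at least 1 CPM, the 5 higher ones with the smallest unadjusted p in limma were Cenpj, BC002059, Slfn8, Thbs1 and Fas, and the 5 lower ones were Fam19a2, Fbxo2, Fam174a, Nudt3 and Lrp3. Cenpj, a centriole protein, lay between 10.9 and 11.9 CPM after PBS (median 11.3) and between 11.4 and 14.6 CPM after TNF (median 13.7). Its log2 fold change was 0.23 (SE 0.06, 95% interval 0.11 to 0.35, unadjusted p = 0.000809, FDR 0.903). Fas, a death receptor of the TNF receptor family (ENSMUSG00000024778, chr19:34290666-34327772), lay between 0.577 and 1.28 CPM (median 0.741) and between 0.966 and 1.80 CPM (median 1.36). All 6 TNF retinas were above its PBS mean, with a log2 fold change of 0.74 (SE 0.19, 95% interval 0.33 to 1.16, p = 0.00159), after −0.10 at day 2 and 0.08 at day 35.

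Thbs1, a matrix glycoprotein, was at 0.80 (95% interval 0.36 to 1.24, p = 0.00152), or 0.48 without mouse 59830, with medians of 12.5 CPM after PBS and 21.5 CPM after TNF. Fbxo2, a ubiquitin ligase subunit of neurons, lay between 15.2 and 19.9 CPM after PBS (median 17.6) and between 13.8 and 15.8 CPM after TNF (median 14.8). Its log2 fold change was −0.24 (95% interval −0.37 to −0.11, p = 0.00104). Every TNF retina lay above every PBS retina in 2 genes (0.0111%), Gm16096 and Tnfrsf11b, and below in 4 genes (0.0222%), Spata18, Lrp3, Nyap1 and Nr1h2; these 6 were singled out after their values were seen. Tnfrsf11b, which encodes the decoy receptor osteoprotegerin, lay between 0.259 and 0.393 CPM after PBS (median 0.321) and between 0.409 and 1.02 CPM after TNF (median 0.476). Its log2 fold change was 0.78 (SE 0.24, unadjusted p = 0.00579 in limma). Largest in size among genes of at least 1 CPM was Krt5, a keratin of surface epithelium, at 2.00 (unadjusted p = 0.0832), followed by Krt6a (1.66) and Krt15 (1.62). Without mouse 59830 these were 0.56, 0.72 and 0.42, and with DESeq2 the direction of Krt5 (−0.10) and Krt15 (−0.54) turned. Krt5 ranged from 0.0288 to 6.45 CPM in PBS retinas and from 0.19 to 9.63 CPM in TNF retinas.

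At day 35, with 9 TNF and 6 PBS retinas of other mice, the same fit called 0 of 17821 genes (0%), with 887 at an unadjusted p under 0.05. The NF-κB score differed by 0.13 (0.03 to 0.23) and the complement score by 0.16 (0.01 to 0.31). The pan-reactive list differed by 0.29 (0.09 to 0.48) at day 35, with Gfap at 0.55 (unadjusted p = 0.00174 in limma), and by −0.17 (−0.50 to 0.16) at day 2. At day 2 the NF-κB and complement scores differed by 0.07 (−0.24 to 0.38) and 0.24 (−0.14 to 0.61). C4b had 0.56 at day 14, −0.32 at day 2 and 0.48 at day 35, and the difference between days 14 and 2 was 1.02 (unadjusted p = 0.000461, FDR 0.999 in limma). These values stand side by side and come from different mice.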

How the data were processed

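Whole retinas were sequenced as 150 bp read pairs. Per the labels and methods, the authors aligned them to mm10 with STAR 2.7.9a and summed read pairs per gene with featureCounts (Subread 2.0.1), and the deposited counts are whole numbers with no normalization. The annotation release is not given in the sources used here. The group, sex, eye, mouse and batch of each retina come from the labels. GENCODE M21 (GRCm38) gave symbols and coordinates for 35449 of 37315 genes.

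In R 4.3.3, genes were kept by filterByExpr of edgeR 4.0.16 (minimum count 10, minimum total 15, proportion 0.7, large groups from 10), scaled with TMM and tested with limma 3.58.1 on voom weights. Sex was a term and mouse a random block (duplicateCorrelation with statmod 1.5.0, 2 rounds, correlation 0.284), and p-values were adjusted over all genes tested. Levels are TMM-scaled CPM, except those of the retinas that stand apart and the ranges of Krt5 and Gm23935, which are scaled to the plain total. A list's score is its mean log2 CPM (prior count 2) over members that passed the filter, minus the PBS mean. Its interval comes from the same model with the same mouse correlation, bounds a difference and is not a test of the list. DESeq2 1.42.0 and edgeR's quasi-likelihood test were alternatives. The day 2 fit held 58 WT retinas of batch 1 with all treatments, of which 39 received TNF or PBS, and the comparison of days held those 39 and the 13 of day 14.

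Eyes of the same mouse are paired by the mouse number in the labels. After group means were removed, the correlation between the eyes of the 5 mice was 0.122, 0.0799, 0.0142, −0.142 and −0.0235. Counts of any 2 retinas differed by more than sampling noise, with a chi-square of at least 5.25 per gene. The fits were tested on simulated data.

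Genes named are those the study names for glia, microglia, Jun, Sarm1 and RGCs, the genes with the smallest FDR at day 2, the 5 nearest to a call and the 3 largest in each direction at day 14 (at least 1 CPM), list members at an unadjusted p under 0.05 and the extremes of each list. The members and gene lists were chosen with earlier results of these data known. Alternatives were other filters, scalings and tools, a fit without sex, mouse left out as a block or fixed, a joint fit of 3 days, and each retina or mouse left out. Leaving out TNF retina 4 with PBS retina 5, other parameters of the day 2 fit and of the comparison of days, and recounting list members under each alternative, were chosen after seeing the data.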

Additional observations from a re-analysis of the deposited data

Results flagged for a closer look

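The highest or lowest retina lay far from the rest of its group in 14 of 188 groups of values checked, where chance gives about 1 in 20. The value given is the gap to the next retina as a share of the group's range. TNF retina 4 was highest in the homeostatic microglia score (0.654), Csf1r (0.68) and Serping1 (0.642). TNF retina 2 was highest in the RGC score (0.69) and in Thy1 (0.852). TNF retina 1 was highest in the oligodendrocyte score (0.752), TNF retina 3 was lowest in Tnfaip2 (0.638) and TNF retina 5 in Nr1h2 (0.698). PBS retina 1 was lowest in the bipolar score (0.668) and highest in the astrocyte score (0.697). PBS retina 2 was lowest in the BCL2 family score (0.657), PBS retina 5 in Gm16096 (0.681), and PBS retina 7 in Trem2 (0.631) and Fam19a2 (0.688).

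The TNF effect on markers of tissue outside the neural retina differed between days 14 and 2. The difference was 1.683 (95% interval 0.601 to 2.765) for pigment epithelium, after −1.357 at day 2, and 1.443 (0.192 to 2.695) for cornea, iris and ciliary body, after −0.708 at day 2. At day 14 itself these lists differed by 0.24 (−0.71 to 1.19) and 0.65 (−0.31 to 1.61). Without mouse 59830 the first was −0.125, and without PBS retina 6 the second was 0.337.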

How the results depend on the processing

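No gene was called at day 14 under any of 31 distinct alternatives (leaving out a mouse that gave 1 retina repeats the fit without that retina), nor at day 35 under 3 or between days 14 and 2 under 4. The number of genes at an unadjusted p under 0.05 ranged from 470 to 2526. It was 483 with no replicate block, 2159 with the replicate block as a fixed factor over the 4 paired mice, 2283 with a weight per retina, 1265 without PBS retina 5 and 2526 (13.9%, smallest FDR 0.272) without TNF retina 2. The number of genes with an interval within −1 and 1 ranged from 14811 to 18125, as the number tested moved with the filter. The number of lists whose score interval left out 0 was 4 (receptors, NF-κB targets, complement, RGCs), 1 in the joint fit of 3 days, and from 2 to 7 with a retina or mouse left out. The NF-κB interval left out 0 in 18 of 18 such fits and 8 of 10 others, the complement interval in 13 of 18, and the RGC interval in 3 of 18 and 6 of 10 others. The median of the day 2 genes at day 14 was 0.216 with those of a day 2 FDR under 0.01 (23 genes). It was 0.0408 with those of an unadjusted p under 0.01 (430 genes). It was 0.0802 with the replicate block as a fixed factor over the 4 paired mice, and 0.0872 to 0.171 with a retina or mouse left out. The median root mean square of within-mouse differences (0.39) was 0.173 for genes of at least 10 CPM and 0.424 with a prior count of 0.5. Of 3442 values of named genes under alternatives, 3415 moved by less than 1 SD of the PBS retinas, as did 1032 of 1043 list scores. This SD was larger than the difference itself in some lists, with 0.079 against −0.045 for rods and 0.444 against 0.381 for MHC class II. A value could thus reach 0 or change sign within it, so these counts do not show that a difference is stable. Of 112 named genes, 74 kept their sign under every alternative. Limits were widest for genes under 1 CPM.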

Other observations

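Other cell types of the retina were bounded as follows at day 14. Endothelial cell and pericyte genes differed between TNF and PBS retinas by 0.01 log2 units (95% interval −0.15 to 0.18), oligodendrocyte genes by 0.09 (−0.10 to 0.28; 0.05 without PBS retina 7, and −0.05 with genes of at least 1 CPM in 6 retinas) and horizontal cell genes by −0.02 (−0.09 to 0.05). Erythrocyte genes, a sign of blood in the tissue, differed by −0.19 (−0.58 to 0.21), or by −0.09 without PBS retina 1 and −0.29 without TNF retina 1. Lens genes differed by 1.02 (−1.59 to 3.63), or by 0.26 (−1.22 to 1.74) without TNF retina 4, and genes of T, B and NK cells by −0.21 (−0.61 to 0.19). The latter was −0.095 without TNF retina 2, −0.38 without mouse 59708 and 0.05 with no filter on low counts.

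The endothelial, horizontal cell and circadian clock values turned sign with 1 retina or mouse left out. Other processes were bounded as follows. Circadian clock genes differed by −0.008 (−0.06 to 0.04), immediate early genes by 0.05 (−0.17 to 0.27; −0.01 without mouse 59710 and 0.12 without PBS retina 6), genes of heme, iron and oxidative stress by 0.02 (−0.18 to 0.23; −0.03 without TNF retina 2 and 0.08 without PBS retina 1) and cell cycle genes by 0.11 (−0.05 to 0.26), or 0.04 without PBS retina 2. Genes of MHC class I presentation differed by 0.18 (−0.10 to 0.47), or 0.10 without TNF retina 2. An abundant transcript, Gm23935, ranged from 1090 to 6410 CPM over the 13 retinas, with a log2 fold change of −0.66, or −0.21 without TNF retina 3, and its range over retinas within the PBS group alone was 2070 to 6410 CPM.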
